A study of Mus musculus with 20 samples.

Results

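The voltage-gated calcium and sodium channels of the mouse heart were followed through 8 genes, taken by name from the authors' deposited tables of comparisons. They are the calcium channel pores Cacna1c, Cacna1d, Cacna1g and Cacna1h, the calcium channel auxiliary subunits Cacnb2 and Cacna2d1, the sodium channel subunit Scn4b and the sodium channel pore Scn10a. All 8 had a p-value in both tables, which list 26214 genes each, and all 8 had a mean normalised count of at least 50 in both. Total RNA of the heart apex, depleted of ribosomal RNA, was sequenced from 20 uninjured wild-type FVB/NRj mice of postnatal day 28. Each mouse had been given AAV9, an adeno-associated virus with good delivery to heart muscle, by retro-orbital injection. Its cargo was either Zeb2os, the noncoding RNA transcribed antisense to the transcription factor gene Zeb2, or a control that the labels do not describe further. It stood under CMV, a viral promoter that works in most kinds of cell, or under hTNNT2, the human cardiac troponin T promoter, which acts mainly in cardiomyocytes. There were 4 groups with 5 mice in each. Males numbered 2 in the CMV control group and 1 in the CMV Zeb2os group, and 0 in the hTNNT2 control group and 3 in the hTNNT2 Zeb2os group.

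Voltage-gated channels open when the membrane depolarises. In a ventricular cardiomyocyte the sodium current drives the upstroke of the action potential, and calcium entering through L-type channels then triggers calcium release from the sarcoplasmic reticulum and so contraction. An L-type channel is built from a pore-forming alpha1 subunit, an intracellular beta subunit that brings the pore to the surface and tunes its opening, and an alpha2delta subunit on the outer face of the membrane. T-type channels open at more negative voltages, need no auxiliary subunit to conduct, and are best known in pacemaker and conduction cells. Sodium channel beta subunits are small membrane proteins that modify the gating and placement of the sodium channel pore.

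Each value below comes from the authors' comparison, made with DESeq2, of the Zeb2os mice of a promoter with the control mice of that promoter. A log2 fold change above 0 means more RNA with Zeb2os than with control, and it comes with its standard error (SE) and an adjusted p-value over all genes. Values per mouse were not analysed here, so no spread between mice stands beside the levels. Zeb2os itself followed the labels, being 12.7-fold higher with CMV and 23.1-fold higher with hTNNT2 in the authors' deposited tables. Mean normalised counts summed to 44295571 in the authors' deposited CMV table and 51284505 in the hTNNT2 table. These 2 tables were normalised separately, and the median gene of those counted 50 or more times on average had a mean 1.16 times as high in the hTNNT2 table. The deposited fold changes are moderated, so folds and intervals hold on the deposited scale.

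The L-type pore Cacna1c (the alpha1C subunit, the main L-type pore of ventricular muscle) was the most abundant channel gene of the set. Its mean normalised count over 10 libraries was 29038 in the authors' deposited CMV table and 33334 in the hTNNT2 table, above 99.3% of all tested genes in each. Divided by the annotated exon length, which allows genes to be compared, its level was 1370 counts per kb (CMV) and 1573 (hTNNT2). The sister L-type pore Cacna1d (alpha1D, known for its part in sinus node pacemaking) had a mean count of 330.2 in the authors' deposited CMV table and 384.5 in the hTNNT2 table. Its level was 26.2 and 30.5 counts per kb, so Cacna1c stood 52.4 and 51.6 times higher per length in the authors' deposited CMV and hTNNT2 tables.

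Of the T-type pores, Cacna1g (alpha1G) far outnumbered Cacna1h (alpha1H). Cacna1g had a mean count of 3059 in the authors' deposited CMV table and 3443 in the hTNNT2 table, and Cacna1h 101.3 and 107.8. Per length, Cacna1g was at 302 and 340 counts per kb and Cacna1h at 10.4 and 11.0, a ratio of 29.1 with CMV and 30.8 with hTNNT2 in the authors' deposited tables. Over all 10 calcium channel pore genes, Cacna1c made up 77.3% (CMV) and 77.4% (hTNNT2) of the summed level per kb. Cacna1g came next at 17.0% and 16.7%. Cacna1a, the P/Q-type pore known from nerve terminals, followed at 2.06% and 2.11%.

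The auxiliary subunits stood between the L-type and the T-type pore in level. Cacna2d1, the alpha2delta-1 subunit, had a mean count of 11116 in the authors' deposited CMV table and 12997 in the hTNNT2 table, and Cacnb2, the beta2 subunit, 5165 and 6002. Per length, Cacna2d1 reached 895 and 1047 counts per kb and Cacnb2 390 and 454. Cacna1c exceeded Cacna2d1 by a factor of 1.531 and 1.503, and Cacnb2 by 3.51 and 3.47, in the CMV and hTNNT2 tables. Within its own family, Cacna2d1 held 96.9% and 97.1% of the level per kb of the 4 alpha2delta genes. Cacnb2 held 70.8% and 71.2% among the 4 beta genes, ahead of Cacnb1 at 15.1% and 14.7% and Cacnb3 at 12.0% and 12.3%.

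The sodium channel beta4 subunit Scn4b had a mean count of 1546 in the authors' deposited CMV table and 1859 in the hTNNT2 table. At 310 and 373 counts per kb it made up 37.3% and 37.5% of the summed level of the sodium channel beta subunits. Scn10a, a sodium channel pore best known from sensory neurons and discussed for cardiac conduction, was scarce, at a mean count of 105.2 with CMV and 103.0 with hTNNT2 in the authors' deposited tables. That is 13.2 and 12.9 counts per kb. The order from Cacna1c over Cacna2d1, Cacnb2, Scn4b, Cacna1g, Cacna1d and Scn10a to Cacna1h was the same in both tables. Scn4b and Cacna1g lay close together, at a ratio of 1.03 and 1.10, and no spread between mice was at hand to tell such neighbours apart. The widest step lay between Cacna1g and Cacna1d, at a ratio of 11.5 with CMV and 11.1 with hTNNT2. Exon length is the union over all annotated transcripts, so the level of a gene with long unused exons is understated.

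**Figure D1:**
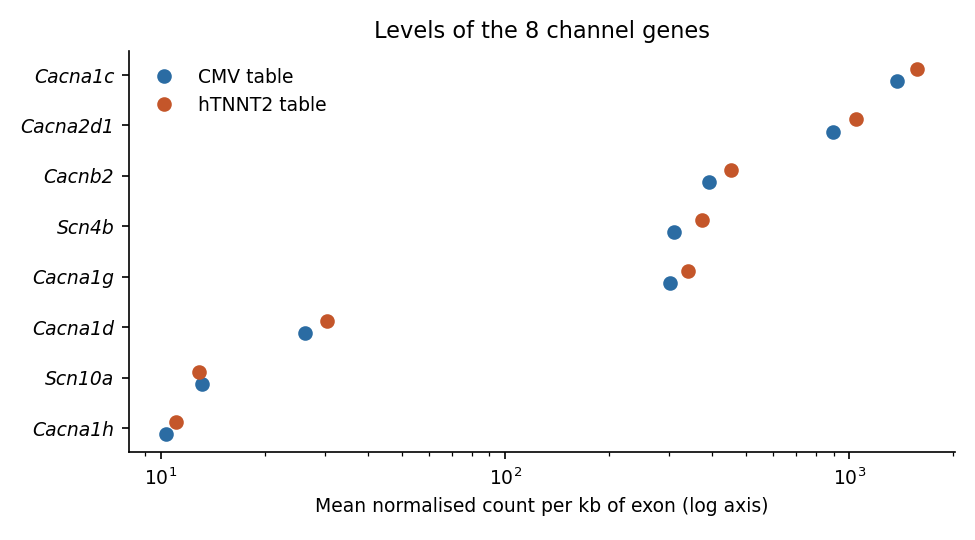
Mean normalised count per kb of annotated exon (log axis) of the 8 channel genes, with 1 point per gene for the CMV table and 1 for the hTNNT2 table, each a mean over 10 libraries without an error. The upper 5 genes lie between 302 and 1573 counts per kb, and Cacna1d, Scn10a and Cacna1h lie at 30.5 or below.

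Set across the separately normalised tables, the ratio of mean counts, hTNNT2 over CMV, ran from 1.06 for Cacna1h to 1.202 for Scn4b in 7 of the 8 genes, beside 1.16 for the median gene. The ratio of Scn10a was 0.979. No test was run on these ratios, since no table spans both promoters.

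On GRCm38 with GENCODE M21, the calcium pores span from 59499 bases (Cacna1h) to 609179 (Cacna1c), with 10 to 27 annotated transcripts. Cacna1c lies on the minus strand of chromosome 6 (118587240 to 119196418) and spans 609179 bases, of which 21191 are exonic, with 27 annotated transcripts. Cacna1d is on the minus strand of chromosome 14 (30039939 to 30491455), Cacna1g on the minus strand of chromosome 11 (94408391 to 94474198) and Cacna1h on the minus strand of chromosome 17 (25374285 to 25433783). Cacnb2 lies on the plus strand of chromosome 2 (14603088 to 14987908) and Cacna2d1 on the plus strand of chromosome 5 (15934691 to 16374511). Scn4b (plus strand, 45138395 to 45154152) and Scn10a (minus strand, 119608456 to 119719322) share chromosome 9. Scn4b has 1 annotated transcript, so for it a gene count and a transcript count are the same thing.

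Exons of 3 of these genes overlap exons of genes on the other strand, and the sources used here do not say whether reads were counted by strand. Cacna1d shares 589 exonic bases (4.67% of its own) with Chdh, an enzyme gene whose mean count was 23.97 in the authors' deposited CMV table and 27.11 in the hTNNT2 table. Cacna1h shares 158 bases (1.62%) with Tpsg1, at a mean count of 0.071 and 0.18 in the authors' deposited CMV and hTNNT2 tables. Cacnb2 shares 618, 111 and 239 bases with the opposite-strand genes Gm10849, Gm10848 and Gm13269. Reads of these stretches cannot be assigned with certainty.

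Because Zeb2os lies opposite Zeb2, start regions of the channel genes were searched for the letters CACCT, the core that ZEB factors are known to bind. RefSeq start regions on GRCm38.p6, from 250 bases before a start to 50 after it, matched 6 of the 8 genes with 10 regions. CACCT or its reverse complement AGGTG occurred in 6 of these 10, against 51.9% of all 32851 such regions. The longer CACCTG or CAGGTG, which contains the shorter core, occurred in 1 of 10, against 20.2% of all. The 6 matches are shown with 12 bases on each side, the core in capitals, 5′ to 3′ on the strand of the gene. The 3 starts of Cacna1c each have 1 match, and Cacnb2 and Cacna2d1 have none in these windows. Positions count from the RefSeq start, which is not always the outermost annotated 5′ end. Both the Scn4b and the Cacna1d match lie before a RefSeq start but inside the GENCODE gene and over a GENCODE exon. The matches after a RefSeq start, of Scn10a and Cacna1c, also touch a GENCODE exon. Cacna1d has 1 further RefSeq start region without a match.
Cacna1c, 164 bases before a RefSeq start, chr6:119196557-119196585, minus strand: caagccttcaggAGGTGacgaactgacag
Cacna1c, 154 bases before another RefSeq start, inside the gene, chr6:118758112-118758140, minus strand: tcactactaaagAGGTGcctttagagcta
Cacna1c, from base 24 after a further RefSeq start, inside the gene, chr6:119108456-119108484, minus strand: gggctcgccctcAGGTGttcgcggctgcc
Cacna1d, 78 bases before a RefSeq start, over a GENCODE exon, chr14:30491218-30491246, minus strand: aatgccaacagcCACCTacctaccatctc
Scn4b, 98 bases before the RefSeq start, over a GENCODE exon, chr9:45138514-45138542, plus strand: acctaaaagctcCACCTctactcccccgt
Scn10a, from base 8 after the RefSeq start, chr9:119719009-119719037, minus strand: ggcaagcccagcCACCTtcgtggaggagc
A match of these letters is a description of the sequence. No binding was measured, and the authors' deposited tables list Zeb2 itself at a log2 fold change of -0.0095 (CMV, SE 0.059) and 0.033 (hTNNT2, SE 0.080), which did not pass.

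With the CMV promoter, no channel gene of the set passed the test for a change with Zeb2os. Of the 8, 0 passed an adjusted p of 0.05 in the authors' deposited DESeq2 table. The share of all tested genes that did was 0.00469% (1 gene, Zeb2os itself). At an unadjusted p under 0.05 the count was also 0, against 0.661% of all genes that were higher and 1.01% that were lower, or 1.09% lower at mean counts of 50 and above. Log2 fold changes ran from -0.019 for Cacna1c to 0.069 for Cacna1g, with SEs of 0.061 to 0.071 in the authors' deposited table. Their median was 0.027, beside 0.0026 over all genes at mean counts of 50 and above. Higher values stood at 6 genes and lower ones at Cacna1c and Cacna1d, and relative to the cardiomyocyte markers described below Cacna1h and Scn4b also turned lower.

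Among the pores, Cacna1c stood at -0.019 (SE 0.066, 95% interval -0.15 to 0.11) with CMV Zeb2os in the authors' deposited table. Cacna1d stood at -0.018 (SE 0.071) and Cacna1h at 0.0028 (SE 0.064) in the authors' deposited table. The value furthest from 0 was that of Cacna1g, 0.069 (SE 0.064, interval -0.057 to 0.19), a difference of 4.87% in the authors' deposited table. The auxiliary subunits Cacnb2 and Cacna2d1 lay close together in the authors' deposited table, at 0.045 (SE 0.071) and 0.047 (SE 0.067). Scn4b was at 0.011 (SE 0.071) and Scn10a at 0.044 (SE 0.061) in the authors' deposited table. Every one of the 8 intervals included 0.

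With the hTNNT2 promoter, no channel gene of the set passed the test over all genes either, and the main L-type and T-type pores had the values furthest from 0. Of the 8, 0 passed an adjusted p of 0.05 in the authors' deposited DESeq2 table, beside 0.0385% of all genes with an adjusted p. At an unadjusted p under 0.05, 2 were lower and 0 higher, where 1.64% of all tested genes were lower and 2.27% higher. At mean counts of 50 and above, the share that was lower was 2.1%. The set was drawn up with earlier results of these data known, so its share is a description.

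Cacna1c was at -0.14 (SE 0.069, interval -0.28 to -0.0059), a difference of -9.37% from the control, with an unadjusted p of 0.0409 and an adjusted p of 1.00 in the authors' deposited DESeq2 table. Cacna1g was at -0.12 (SE 0.054, interval -0.22 to -0.014), a difference of -7.91%, with an unadjusted p of 0.0266 and an adjusted p of 1.00 in the authors' deposited DESeq2 table. By the size of the statistic, Cacna1g ranked 405 and Cacna1c 590 of the 13358 genes at mean counts of 50 and above. The minor pores of both classes had values on the other side of 0, Cacna1d at 0.048 (SE 0.083) and Cacna1h at 0.058 (SE 0.066) in the authors' deposited table. Intervals of both included 0, and whether the minor and the major pore differ was not tested.

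Cacnb2 stood at -0.078 (SE 0.063, interval -0.20 to 0.046) and Cacna2d1 at -0.034 (SE 0.072) with hTNNT2 Zeb2os in the authors' deposited table. Scn4b was at -0.013 (SE 0.077) and Scn10a at 0.024 (SE 0.072) in the authors' deposited table. The 5 most abundant of the channel genes thus had negative values and the 3 scarcest positive ones, except that Cacna2d1 and Scn4b turned positive relative to cardiomyocyte markers. The median of all 8 was -0.023, beside -0.0023 over all genes at mean counts of 50 and above.

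**Figure D2:**
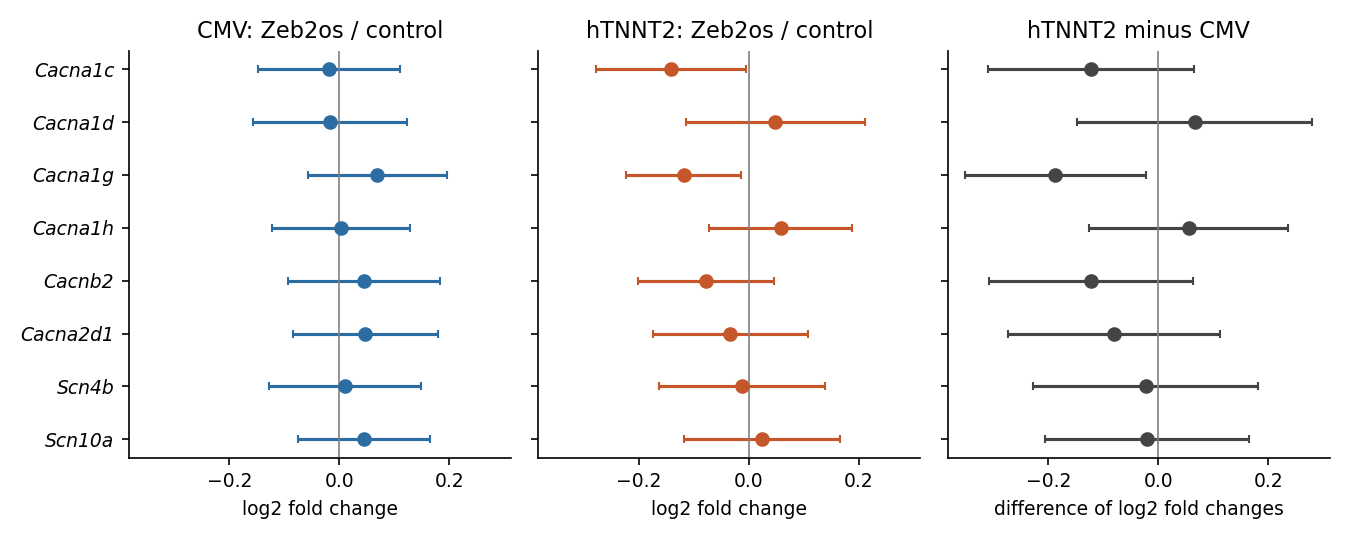
Log2 fold change of Zeb2os over control (left, CMV; middle, hTNNT2) and the difference between promoters (right) for the 8 channel genes, as points with 95% intervals from the deposited SE. With CMV every interval includes 0, and with hTNNT2 those of Cacna1c (-0.28 to -0.0059) and Cacna1g (-0.22 to -0.014) do not, but neither gene passes the adjusted test.

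Direction moved with abundance over all genes as well. With hTNNT2, 45.3% of the 4565 genes with a mean count of 50 to 500 were lower, and 67.0% of the 725 genes from 10000 up. With CMV the order ran the other way, at 54.7% of 4820 genes and 28% of 597. At the abundance of Cacna1c the running median of all genes was -0.025 with hTNNT2 and 0.022 with CMV. With that trend taken off, Cacna1c was at -0.12 and Cacna1g at -0.11 with hTNNT2, and the split of 5 lower and 3 higher genes was the same. The adjusted p of both remained 1 (Benjamini-Hochberg on the DESeq2 values).

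**Figure D3:**
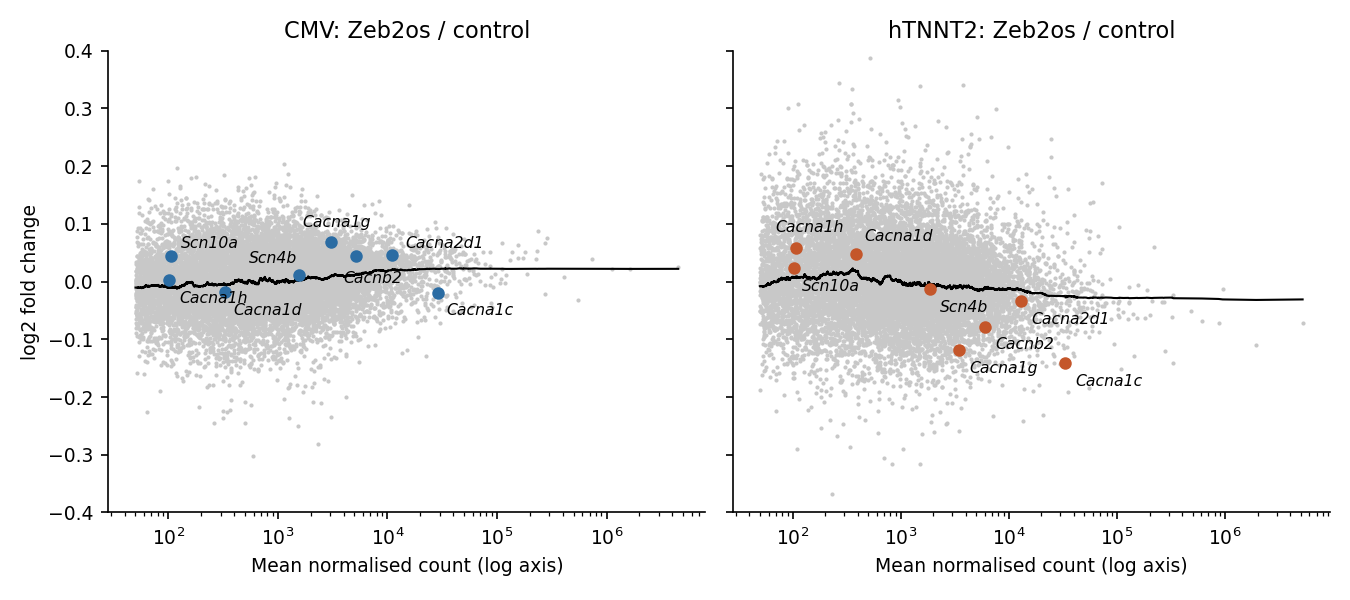
Log2 fold change against mean normalised count (log axis) for genes at mean counts of 50 and above (grey), with the running median over 500 genes (black) and the 8 channel genes (coloured), for CMV (left) and hTNNT2 (right). The vertical axis ends at 0.4 and leaves out Zeb2os alone. With hTNNT2, Cacna1c and Cacna1g lie well under the running median but inside the cloud of all genes.

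The response to Zeb2os was compared between the promoters by subtracting the CMV from the hTNNT2 log2 fold change. No channel gene passed the test of this difference. At an adjusted p under 0.05 the count was 0 of 8, beside 0.00482% of the 20754 genes tested (1 gene, Zeb2os). At an unadjusted p under 0.05 there was 1, Cacna1g, where 0.988% of all genes lay lower with hTNNT2 and 1.66% higher. Cacna1g stood at 0.069 with CMV and at -0.12 with hTNNT2 in the authors' deposited tables, a difference of -0.19 (SE 0.084, interval -0.35 to -0.023). Its unadjusted p was 0.0251 and its adjusted p 1 (normal test on the DESeq2 estimates), and it ranked 216 of 13184 genes. Cacna1c and Cacnb2 had differences of -0.12 (SE 0.096) and -0.12 (SE 0.095), and both intervals included 0. Relative to the cardiomyocyte median, the scale chosen after the data were seen and described below, Cacna1g was at -0.077, Cacna1c at -0.013 and Cacnb2 at -0.012 in this difference. The other 5 differences lay between -0.081 for Cacna2d1 and 0.066 for Cacna1d.

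How large a change these tables could have called follows from the deposited SEs. A gene would have needed a statistic of 4.49 (CMV) or 4.22 (hTNNT2), with all other genes as they were. For the 8 genes that is a log2 fold change of 0.28 to 0.32 with CMV and of 0.23 (Cacna1g) to 0.35 (Cacna1d) with hTNNT2. For Cacna1c it is a fold of 1.23 with CMV and 1.22 with hTNNT2. Changes of the size seen for Cacna1c, -9.37%, were therefore not detectable at an adjusted p under 0.05. A missed threshold does not show that levels were alike.

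The whole families gave no further calls. Of 10 calcium channel pore genes, the authors' deposited DESeq2 tables called 0 with CMV and 0 with hTNNT2. At an unadjusted p under 0.05 none stood out with CMV, and with hTNNT2 the 2 lower ones were Cacna1c and Cacna1g. Of all tested genes, 1.64% were lower with hTNNT2 at that threshold. The list's median was 0.0016 with CMV and -0.022 with hTNNT2. With hTNNT2 the authors' deposited table had Cacna1a at -0.10 (SE 0.079) and Cacna1e, the R-type pore, at 0.010 (SE 0.063). Of 16 auxiliary subunit genes, 15 had a p-value with CMV and 14 with hTNNT2. Here 0 passed at an adjusted or an unadjusted p under 0.05 in the authors' deposited DESeq2 tables, and the medians were 0.011 and 0.0052. The alpha2delta-2 gene Cacna2d2 was at 0.14 (SE 0.078, unadjusted p = 0.0704, adjusted p = 1.00 by DESeq2) with hTNNT2 in the authors' deposited table. Cacng6, a gamma subunit of muscle, was near the floor at a mean count of 2.29 in the authors' deposited CMV table and 4.38 in the hTNNT2 table.

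Among 11 sodium channel pore and leak channel genes, neither of the authors' deposited DESeq2 tables called any. At an unadjusted p under 0.05 the count was 0 with CMV and 2 with hTNNT2, both higher. Of all tested genes, 2.27% were higher with hTNNT2 at that threshold. The 2 sodium channel genes were Nalcn, the sodium leak channel, and Scn7a, an atypical channel that senses sodium. Nalcn stood at 0.23 (SE 0.057, adjusted p = 0.0919 by DESeq2) at a mean count of 32.4, and Scn7a at 0.20 (SE 0.074, adjusted p = 0.692 by DESeq2) at 3793, with hTNNT2 in the authors' deposited table. Their values in the authors' deposited CMV table were 0.019 (SE 0.040) and -0.063 (SE 0.060). The list's median was 0.019 with CMV and 0.024 with hTNNT2. Of 4 sodium channel beta subunits, 0 passed at an adjusted or an unadjusted p under 0.05 in the authors' deposited DESeq2 tables. With hTNNT2, Scn3b was at 0.060 (SE 0.081) in the authors' deposited table, beside Scn4b at -0.013.

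Of 26 inhibitors and partners of these channels, 0 passed in either of the authors' deposited DESeq2 tables. At an unadjusted p under 0.05, 1.64% of all tested genes were lower with hTNNT2 and 2.27% higher. Of the 26, 0 passed that threshold with CMV, and with hTNNT2 2 were lower and 0 higher. These were Fgf11 and Fgf13, which belong with Fgf12 and Fgf14 to the fibroblast growth factor homologous factors, proteins that stay inside the cell and bind the tail of sodium channel pores. Fgf11 was at -0.24 (SE 0.067, unadjusted p = 0.000353, adjusted p = 0.207 by DESeq2) and Fgf13 at -0.13 (SE 0.062, adjusted p = 1.00 by DESeq2) with hTNNT2 in the authors' deposited table. Their values in the authors' deposited CMV table were 0.0018 (SE 0.069) and 0.037 (SE 0.065). Fgf12 was at 0.072 (SE 0.065) and Fgf14 at 0.039 (SE 0.082) in the authors' deposited hTNNT2 table, and neither passed. The small GTPases Rrad, Gem and Rem1, which inhibit L-type channels through the beta subunit, were picked after their values were seen. They had values of 0.13 (SE 0.082), 0.11 (SE 0.082) and 0.053 (SE 0.082) with hTNNT2 and -0.014 (SE 0.060), -0.13 (SE 0.071) and -0.085 (SE 0.067) with CMV in the authors' deposited tables. No interval of the 6 values excluded 0. The medians of the 26 were 0.00051 with CMV and -0.00015 with hTNNT2.

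**Figure D4:**
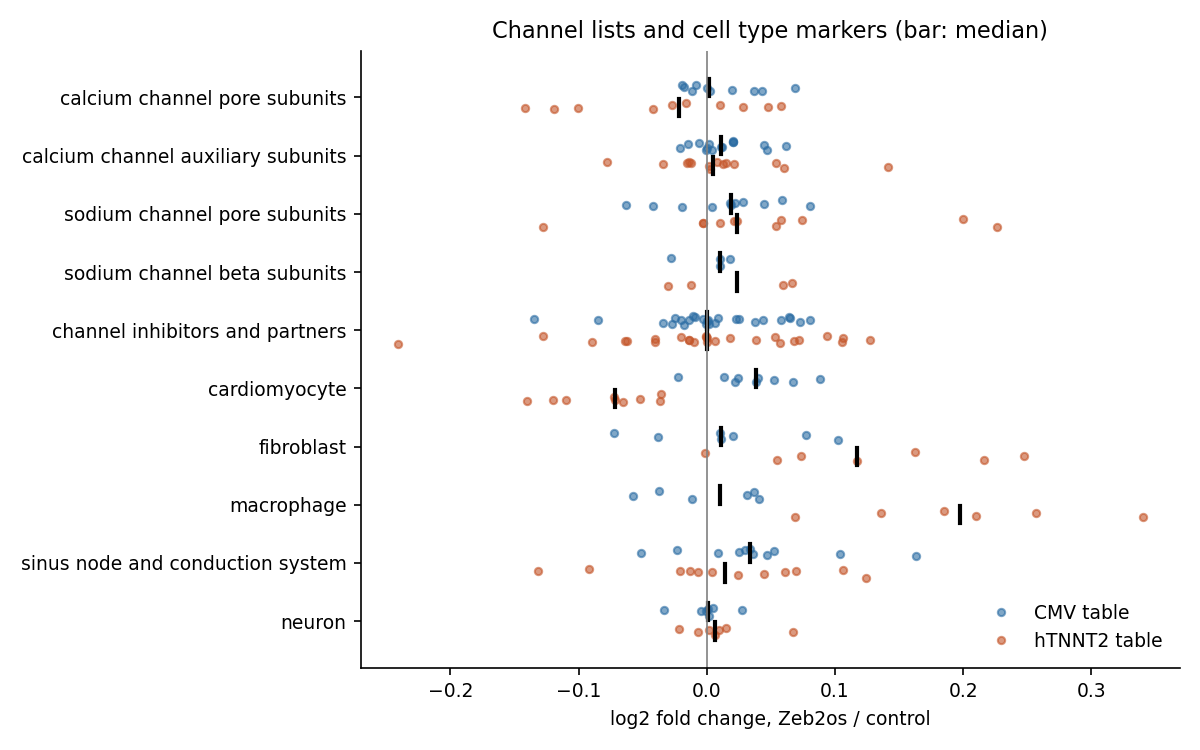
Log2 fold change of Zeb2os over control for each gene with a p-value in 5 channel lists and 5 lists of cell type markers, by promoter, with the median of each list as a bar. Channel lists have medians between -0.022 and 0.024, and with hTNNT2 the cardiomyocyte median is -0.072 and the macrophage median 0.20. The channel medians include scarce genes. With either promoter, 6 of 10 calcium pore, 8 of 16 auxiliary and 6 of 11 sodium pore genes have a mean count of at least 50.

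The tissue carried marker genes of cardiomyocytes. All 9 cardiomyocyte markers were abundant, led by Ttn at a mean count of 4512220 in the authors' deposited CMV table. Of these 9, 8 were higher with CMV (median 0.039) and 9 of 9 lower with hTNNT2 (median -0.072), and 0 passed in either of the authors' deposited DESeq2 tables. At an unadjusted p under 0.05 the count was 0 with CMV, and 1 was lower with hTNNT2, where 1.64% of all tested genes were. In bulk tissue, fewer cells of a type and less RNA per cell cannot be told apart. Relative to the cardiomyocyte median, a scale chosen after the data were seen, Cacna1c was at -0.070 and Cacna1g at -0.047 with hTNNT2, Cacnb2 at -0.0063 and Cacna1h at 0.13. On that scale 3 of the 8 channel genes were lower and 5 higher with hTNNT2, where 5 were lower and 3 higher as deposited.

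Markers of other cell types were mostly higher with hTNNT2 Zeb2os, and their part in the channel values was not tested. All 6 macrophage markers were higher, with a median of 0.20, and 4 of them were so at an unadjusted p under 0.05. Of the 6, 1, Lyz2, passed in the authors' deposited DESeq2 table, where 0.0385% of all genes with an adjusted p did. Fibroblast markers were higher in 6 of 7 (median 0.12, 0 passed by DESeq2, 3 at an unadjusted p under 0.05), and the authors' deposited table had Col1a1 at 0.16 (SE 0.082). Of all tested genes, 2.27% were higher with hTNNT2 at that unadjusted threshold. Those of smooth muscle and pericytes were higher in 6 of 6 (median 0.11), and endothelial ones in 3 of 4 (median 0.035). With CMV the medians were 0.0100 for macrophage, 0.011 for fibroblast, -0.064 for smooth muscle and pericyte and -0.039 for endothelial markers.

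Cells known for Scn10a, Cacna1d, Cacna1g and Cacna1h could be followed through nerve and conduction markers. Of 8 neuron markers, Dbh made up most of the summed mean count of 286 in the authors' deposited CMV table, at 265.5. In the same authors' deposited table Snap25 and Th stood below a mean count of 1 and Chat at 0, and with hTNNT2 Th was at 0. Neuron markers had a median of 0.00099 with CMV and 0.0064 with hTNNT2, and Schwann cell markers of -0.022 and -0.00011. The 12 sinus node and conduction markers, led by Tbx3 at a mean count of 1342 in the authors' deposited CMV table, had medians of 0.034 and 0.014. Of them 1, Hcn4, was higher at an unadjusted p under 0.05 with CMV, and 0 were with hTNNT2. Hcn4 stood at 0.16 (SE 0.071, adjusted p = 1 by DESeq2) with CMV in the authors' deposited table. The share of all tested genes that were higher at that threshold was 0.661% with CMV and 2.27% with hTNNT2. The sinus node factor Isl1 was at a mean count of 0 in the authors' deposited CMV table and 0.19 in the hTNNT2 table. Among 6 atrial markers, 4 had a p-value with CMV and 3 with hTNNT2, with medians of 0.037 and 0.047, and Nppa was at 0.047 in both of the authors' deposited tables. Of the atrial markers 1, Bmp10, was lower with hTNNT2 at an unadjusted p under 0.05, where 1.64% of all tested genes were. Bmp10 stood at -0.12 (SE 0.042, unadjusted p = 0.00457, adjusted p = 0.611 by DESeq2), at a mean count of 17.0 in the authors' deposited hTNNT2 table.

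Sex makeup differed between the arms, and no sex term could be fitted to tables of comparisons. The X-linked genes Eif2s3x, Kdm5c, Ddx3x and Kdm6a, expressed from both X chromosomes in females, were lower in 4 of 4 with hTNNT2 (median -0.18), where males stood in the Zeb2os group alone. With CMV they were higher in 4 of 4 (median 0.036). None of the 8 channel genes lies on a sex chromosome. Females stood in both hTNNT2 groups, 2 with Zeb2os and 5 with control, but without values per mouse the part of sex in the channel values was not tested.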

How the data were processed

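Heart apex RNA of 20 mice was compared within each promoter. Trim Galore, DESeq2 and the builds GRCm38 and mm10 are what the authors used, per the submitters' processing notes. The sources used here do not give the aligner, counter, strand setting or versions. Per the file headers, each deposited table holds a mean normalised count as a signal, a log2 fold change with its SE on the log2 scale, a Wald statistic (a score), a p-value and an adjusted p-value. The deposited statistic runs against the sign of the log2 fold change in every row and was turned. The sources used here give no depth per library, so no interval for counting error was computed.

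Intervals are the log2 fold change with normal 95% bounds from the SE. The difference between promoters was scaled by its SE (the 2 SEs added in quadrature), given a 2-sided normal p, adjusted over 20754 genes, and tested on simulated data. Lists held 133 entries, all matched by symbol, and are described by counts and medians. Named list genes were up to 2 non-members with the smallest p per channel list and the most abundant marker per list; not every gene so chosen is reported. The channel genes and lists were chosen with earlier results of these data known. Levels used exon lengths of GENCODE M21. Python 3.11.15, numpy 2.4.6, pandas 2.3.3, scipy 1.17.1 and matplotlib 3.10.9 were used.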

Additional observations from a re-analysis of the deposited data

How the results depend on the processing

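The count of channel genes passing an adjusted p under 0.05 was 0 with CMV, 0 with hTNNT2 and 0 for the difference between promoters. It was also 0 with adjustment over genes at mean counts of 50 and above, an empirical null, centring on the median gene, removal of the trend with mean count, Benjamini-Hochberg over every gene with a p, and a threshold of 0.1, as far as each was planned for a comparison. The lowest adjusted p of a channel gene under these alternatives was 1.00 with CMV, 0.777 with hTNNT2 and 0.649 for the difference, the last 2 with the empirical null. Centring and trend removal turned 0 of the 16 log2 fold changes and 0 of the 8 differences. Scaling to the median of cardiomyocyte markers, chosen after the data were seen, turned 7 values, and the median itself (0.039 with CMV, -0.072 with hTNNT2) sets that shift. A further 9 values kept their sign but moved by more than their SE. With CMV, Cacna1h became -0.036 and Scn4b -0.028. With hTNNT2, Cacna2d1 became 0.038 and Scn4b 0.059. The differences between promoters became 0.030 for Cacna2d1, 0.087 for Scn4b and 0.090 for Scn10a. Those that kept their sign became -0.077 for Cacna1g, -0.013 for Cacna1c, -0.012 for Cacnb2, 0.18 for Cacna1d and 0.17 for Cacna1h. The hTNNT2 fold changes that moved were those of Cacna1c (-0.070), Cacna1g (-0.047), Cacnb2 (-0.0063) and Cacna1h (0.13). No paired analysis was possible because the mouse numbers in the labels differ between groups and values per mouse were not analysed here. For the same reason no mouse could be left out, and no result could be weighed by library depth.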
